A study of Mus musculus with 6 samples.

Results

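The genes described are the subunits of oxidative phosphorylation in mouse retina. They were taken from the deposited gene table as the protein-coding genes of the mitochondrial chromosome together with the protein-coding genes whose names begin with Ndufa, Ndufb, Ndufc, Nduff, Ndufs, Ndufv, Uqcr, Cox4 to Cox8 or Atp5, or are Sdha to Sdhd or Cyc1. Ndufa4l2 and Cox4i2 were left out of the set and are described beside it. These names matched 106 of the 54532 genes in the table. Of the 106, 84 are nuclear-encoded subunits, 13 are encoded by the mitochondrial genome, and 9 (Ndufaf1 to Ndufaf8 and Atp5s) are assembly or coupling factors that share the names and are given apart.

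Oxidative phosphorylation is carried out in the inner mitochondrial membrane. Complexes I and II pass electrons from NADH and succinate to ubiquinone, complex III passes them on to cytochrome c, and complex IV, cytochrome c oxidase, passes them to oxygen, while complex V, the ATP synthase, makes ATP from the proton gradient. Most subunits are encoded in the nucleus and imported, and the core membrane subunits of complexes I, III, IV and V are made from the mitochondrial genome. Photoreceptors pack mitochondria into their inner segments, and the retina is among the tissues with the highest oxygen use.

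The libraries came from retinas of C57BL/6J mice, labelled wild-type, all at postnatal day 17, and 3 of them were from normal mice and 3 from mice with OIR. OIR usually stands for oxygen-induced retinopathy. In that model raised oxygen stops vessel growth in the pups' retina, and after a return to room air the poorly supplied retina lacks oxygen and forms abnormal vessels. The sources used here do not give the oxygen schedule or name a further treatment. Whether libraries of a group stem from different animals is not stated. Sex-linked transcripts marked male and female libraries in each group, so not all libraries of a group came from the same animal. Whether libraries of the same sex share an animal is not known. The p-values therefore cover the spread between these libraries, which may be technical in part.

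Each library held 15818168 to 17163513 counts, and edgeR's quasi-likelihood test was run on the 17108 genes with enough counts, at an adjusted p under 0.05 over all of them. Sex-linked transcripts marked 2 of the normal and 1 of the OIR libraries as male and the others as female. Rod genes, which mark the tissue as retina, were abundant, and their 16 markers summed to 58707 to 63706 CPM (counts scaled to a common library size of 1000000) in normal and 48833 to 54180 CPM in OIR libraries. In whole tissue, fewer cells of a type and less RNA per cell cannot be told apart. The library normal 1 stood apart for the nuclear-encoded subunits, being the highest of the 3 normal libraries for 73 of the 80 that were tested, against 6836 of all 17108 genes. Medians and counts without it are also given for the nuclear-encoded and mitochondrially encoded subunits and for some of the other lists.

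A property of the sequences bears on the mitochondrially encoded genes. The nuclear genome holds, on chromosome 1, a copy of the stretch of mitochondrial DNA from mt-Co1 to mt-Nd4, and the annotation lists its pieces as pseudogenes of their own. The pairs printed here show how near the copies are, taken from the GENCODE vM21 transcripts of the mm10 build, with the first 60 bases of each gene and capitals for the base at which the members of a pair differ. The first pair is identical, and in the second the copy has the substitution T3C, counted from 1 at the first base of mt-Nd3.
mt-Atp6 (MT:7927-7986, plus strand): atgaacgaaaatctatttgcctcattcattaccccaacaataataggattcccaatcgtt
Gm10925 (chr1:24614592-24614651, minus strand): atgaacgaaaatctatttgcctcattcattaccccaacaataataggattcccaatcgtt
mt-Nd3 (MT:9459-9518, plus strand): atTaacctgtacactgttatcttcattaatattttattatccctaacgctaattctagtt
Gm28438 (chr1:24613060-24613119, minus strand): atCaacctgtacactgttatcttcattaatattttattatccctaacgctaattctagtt

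Over their whole length, Gm10925 matched mt-Atp6 at 678 of 678 bases, Gm28661 matched mt-Co2 at 681 of 681, Gm28437 matched mt-Co3 at 783 of 783, and Gm28438 matched mt-Nd3 at 344 of 345. Gm10222 matched mt-Nd4l at 294 of 294 bases, Gm28439 matched 876 bases of mt-Nd4, and Gm29216 matched 486 of 492 bases of mt-Co1. A read from such a stretch can align equally well to both places. The sources used here do not say how reads with several alignments were counted. Of all windows of 50 bases, 100% in mt-Co2, 99.9% in mt-Co3, 99.5% in mt-Atp6, 98.8% in mt-Nd4l and 98% in mt-Nd3 occurred in the transcript of another gene. That share was 62.2% in mt-Nd4, 51.1% in mt-Co1, 8.19% in mt-Nd2, 7.61% in mt-Nd5 and 0 in mt-Nd1, mt-Nd6, mt-Cytb and mt-Atp8.

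The levels of the mitochondrial genes differed widely and are given beside these shares. The part of shared sequence in the levels was not tested. Per kilobase of gene, the normal mean was 7031 CPM for mt-Co1, 3261 for mt-Cytb, 2397 for mt-Nd1, 1102 for mt-Nd2, 1086 for mt-Nd6, 1044 for mt-Nd5 and 872 for mt-Nd4. It was 60.4 CPM per kilobase for mt-Co2, 47.8 for mt-Co3, 33.1 for mt-Atp6, 22.3 for mt-Nd3 and 16.2 for mt-Nd4l, the 5 genes whose sequence was almost wholly shared. The subunits of one enzyme, mt-Co1, mt-Co2 and mt-Co3, thus lay more than a factor of 100 apart per kilobase, and the counts of these 5 genes are uncertain as levels of the mitochondrial transcripts. mt-Atp8, at 1.21 CPM per kilobase, shared no window with another annotated gene. It lies between mt-Co2 and mt-Atp6, inside the stretch copied on chromosome 1, and the window search would miss a copy outside annotated genes. Its count is therefore uncertain too. It also overlaps mt-Atp6, which begins at base 7927 of the mitochondrial chromosome before mt-Atp8 ends at 7969. mt-Nd6 lies on the minus strand at bases 13552 to 14070 and overlaps the end of mt-Nd5 at 13565. The counting is not stated to use strand, so reads from the overlap cannot be told apart. Over the rest of mt-Nd6, reads from the plus strand could also count for it.

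**Figure D1:**
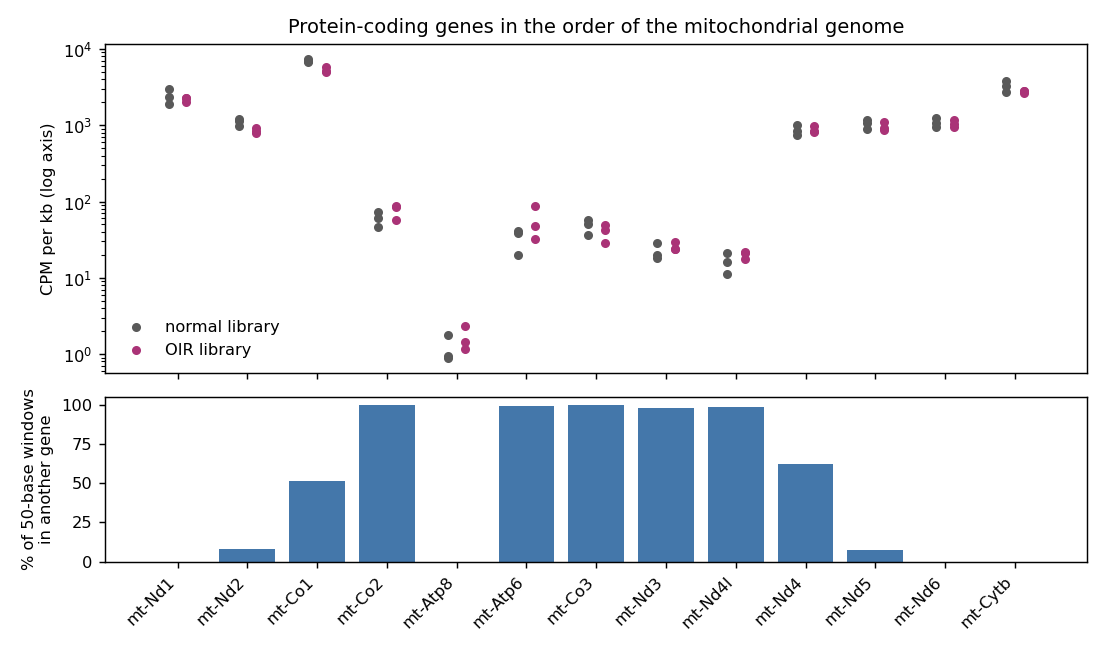
The upper panel plots CPM per kilobase on a log axis for the 13 mitochondrially encoded genes in genome order, with one point per library (normal grey, OIR purple), and the lower panel the percent of 50-base windows found in another gene. The 5 genes at 98% or more sit below 100 CPM per kilobase, and mt-Co1 is the highest in both groups, with its OIR libraries below its normal libraries.

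Of the 106 genes, 101 passed the filter on low counts, and 4 of these 101 were lower in OIR and 0 were higher. Of all genes tested, 11.1% were higher and 8.73% lower, together 19.8%, so the share of the oxidative phosphorylation genes past the threshold lay below the share over all genes. The 4 were mt-Co1, mt-Nd2, Ndufb2 and Ndufs1, and 17 of the 101 had an unadjusted p under 0.05 in that test. The normal and OIR libraries did not overlap for 20 of the 101 genes, 17 lower and 3 higher, against 18.1% lower and 18.7% higher, together 36.8%, of all genes tested. The median log2 change, OIR minus normal, was -0.08 over the 101 and 0.01 over all genes tested. For 81 of the 101, the 95% interval of the change lay within 1.5-fold in both directions, against 54.6% of all genes. The median standard error was 0.101 for these genes and 0.127 for all genes on the log2 scale.

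The 5 genes that did not pass the filter were nearly silent in every library or held few assigned counts. mt-Atp8, a small subunit of the ATP synthase, had 3, 6 and 3 counts in the normal and 5, 4 and 8 in the OIR libraries. Cox6a2, the heart and muscle form of a complex IV subunit, had 5, 0 and 1 counts in the normal and 3, 3 and 4 in the OIR libraries. Cox7b2 and Cox8c, forms known from testis, had 0 counts in all 6 libraries, as did a second gene listed under the symbol Atp5o. Of the 50-base windows of that second gene, 89.8% occurred in the transcript of another gene, so its count is uncertain. A count of 0 in a library allows up to 3 counts, or 0.175 to 0.190 CPM at these depths, from counting error alone.

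**Figure D2:**
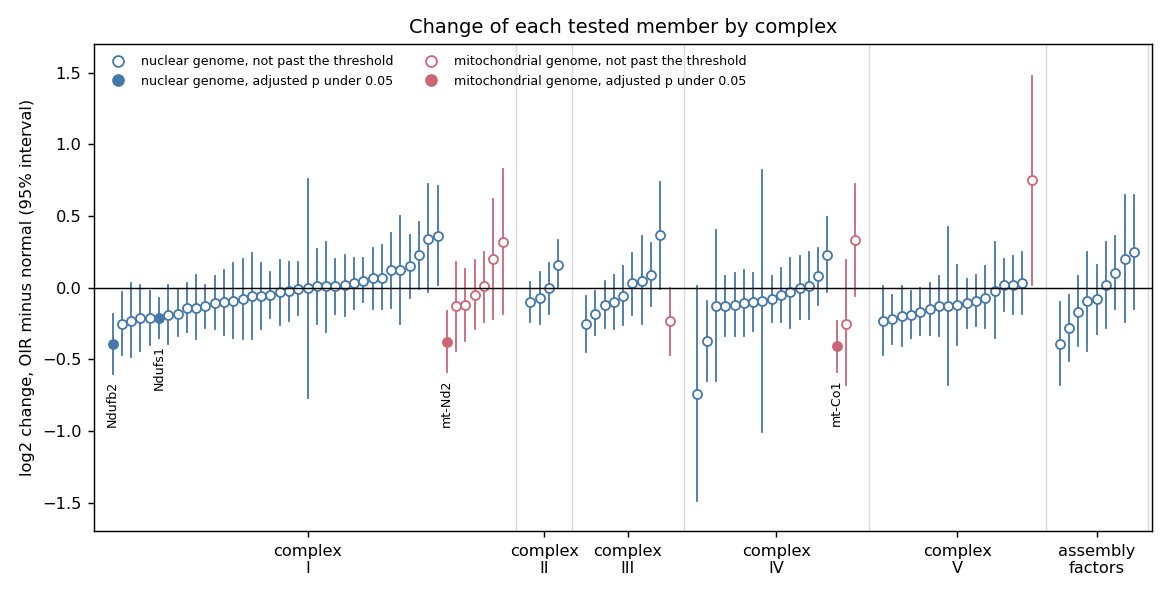
Each point is the log2 change (OIR minus normal) of one tested gene with its 95% interval, grouped by complex and coloured by the genome that encodes it. Filled points passed an adjusted p of 0.05; these are 3 genes of complex I and 1 of complex IV, all below 0.

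The mitochondrially encoded subunits took a smaller share of all counts in OIR. Their 13 genes together held 1.94%, 2.29% and 2.21% of all counts in the normal libraries, 2.15% ± 0.181 (SD, n = 3), and 1.88%, 1.72% and 1.87% in the OIR libraries, 1.82% ± 0.0874 (SD, n = 3). The lowest normal library lay above the highest OIR library, a difference of -0.325 percentage points. No test was run on this share; 3 libraries against 3 cannot reach an exact permutation p under 0.1. Without mt-Co1 the shares were 0.889%, 1.27% and 1.08% in the normal and 1.07%, 0.927% and 0.979% in the OIR libraries, and the groups overlapped. mt-Co1 alone made up 44.7% to 54.3% of the mitochondrially encoded counts in normal and 42.8% to 47.6% in OIR libraries.

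mt-Co1 encodes the catalytic subunit of complex IV, where oxygen is reduced, and lies on the plus strand at bases 5328 to 6872 of the mitochondrial chromosome in mm10. It measured 10848, 10301 and 11441 CPM in the normal libraries and 7841, 7809 and 8884 CPM in the OIR libraries. All 3 OIR libraries lay below all 3 normal libraries. The fall was 1.33-fold, from 10863 ± 570.4 to 8178 ± 612 CPM (SD, n = 3), a log2 change of -0.41 with a standard error of 0.082 and an edgeR adjusted p of 0.00535. It passed the threshold under all 17 alternative settings, with log2 changes of -0.49 to -0.37. The copy of part of mt-Co1 on chromosome 1, Gm29216, held 203, 197 and 276 counts in the normal and 232, 177 and 324 in the OIR libraries, groups that overlapped. Of the 1496 windows of 50 bases in mt-Co1, 765 occurred in the transcript of another gene, and 430 of them in Gm29216. The level of mt-Co1 is therefore uncertain in part.

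The other 2 mitochondrially encoded subunits of complex IV rest on shared sequence. mt-Co2, which takes up electrons from cytochrome c, measured 31.6, 41.8 and 50.5 CPM in the normal and 57.3, 39.6 and 59.2 CPM in the OIR libraries, with an adjusted p of 0.223 (edgeR). mt-Co3 measured 44.3, 28.3 and 39.9 CPM in the normal and 33.4, 22.5 and 39.0 CPM in the OIR libraries, with an adjusted p of 0.439 (edgeR). Both pairs of groups overlapped. The chromosome 1 copy of mt-Co2, Gm28661, held 525, 789 and 630 counts in the normal and 879, 732 and 819 in the OIR libraries, and that of mt-Co3, Gm28437, held 336, 325 and 475 in the normal and 353, 297 and 458 in the OIR libraries. None of the 7 copies on chromosome 1 passed the threshold.

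Of the 7 mitochondrially encoded subunits of complex I, 1 passed the threshold. mt-Nd2, a proton-pumping membrane subunit at bases 3914 to 4951 of the plus strand, measured 1005, 1251 and 1176 CPM in the normal and 965, 813 and 867 CPM in the OIR libraries. The groups did not overlap, though the lowest normal and the highest OIR library lay close together. Its log2 change was -0.38 with a standard error of 0.096 and an edgeR adjusted p of 0.0193, a 1.30-fold fall. Left out one at a time, OIR 2, OIR 3 and normal 3 each ended the call, with edgeR adjusted p of 0.0820, 0.0545 and 0.0733.

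mt-Nd1, the most abundant of the mitochondrial complex I genes per kilobase, measured 1795, 2873 and 2215 CPM in the normal and 2193, 1933 and 2164 CPM in the OIR libraries, and the groups overlapped. The log2 changes of mt-Nd1, mt-Nd4, mt-Nd5 and mt-Nd6 were -0.13, 0.01, -0.12 and -0.05, and none passed. mt-Nd3 and mt-Nd4l, with at most 10.3 CPM in any library and almost wholly shared sequence, had log2 changes of 0.20 and 0.32 and did not pass.

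mt-Cytb, the cytochrome b of complex III and its only mitochondrially encoded subunit, measured 3114, 4305 and 3773 CPM in the normal and 3231, 3047 and 3246 CPM in the OIR libraries. Normal 1 lay among the OIR libraries and the other 2 normal libraries above them. Its log2 change was -0.23 with an edgeR adjusted p of 0.160, and without normal 1 it was -0.35 with an adjusted p of 0.00498. mt-Atp6, the proton channel subunit of complex V, measured 13.6, 26.3 and 27.7 CPM in the normal and 58.9, 21.9 and 32.6 CPM in the OIR libraries. Its log2 change of 0.75 was the largest rise in the set, came mainly from OIR 1 and did not pass (edgeR adjusted p of 0.146). Its copy Gm10925 held 267, 394 and 427 counts in the normal and 559, 375 and 831 in the OIR libraries.

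Split by shared sequence, the 5 tested mitochondrial genes with under 10% shared windows (mt-Nd1, mt-Nd2, mt-Nd5, mt-Nd6 and mt-Cytb) all had log2 changes below 0, with a median of -0.13 and 1 past the threshold. Of these, mt-Nd6 is uncertain, since its counts may hold reads from the opposite strand. The 5 with at least 98% shared windows had a median of 0.32, with 4 above 0 and none past the threshold. mt-Co1 and mt-Nd4, with 51.1% and 62.2% of their windows shared, belonged to neither group. Over all 12 tested, the median was -0.08, with 2 lower and none higher. For 5 of the 12 the interval lay within 1.5-fold in both directions. Normal 1 was the lowest normal library for 9 of the 12. Without normal 1 the median of the 12 was -0.13, with 3 lower and none higher, beside 1515 lower of all 17606 genes tested in that fit. The median of the 5 with under 10% shared windows was then -0.28, with 2 lower. That of the 5 with at least 98% was 0.17, with none past the threshold. Without normal 2 the median of the 12 was 0.06.

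Few nuclear-encoded subunits changed. Of the 80 tested, 2 were lower and none higher, and their log2 changes ran from -0.74 to 0.37 with a median of -0.07. Below 0 lay 54 of the 80, or 67.5%, against 48.2% of all genes tested. The interval lay within 1.5-fold in both directions for 70 of the 80. Summed, they measured 8321, 7249 and 7047 CPM in the normal and 6843, 6975 and 7397 CPM in the OIR libraries, so the groups overlapped and normal 1 was the highest of the 6.

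The small median of the nuclear-encoded subunits moved with the library that was left out. Normal 1 was singled out as the highest normal library for 73 of these 80, so leaving it out was bound to raise their changes. Without normal 3 the median was -0.13 with 69 of the 80 below 0, and without OIR 3 it was -0.12 with 63 below 0. Without normal 1 the median log2 change was 0.03, and 35 of the 80 lay below 0. Of the 80, 4 rose and 2 fell in that fit, and of all 101 genes of the set 4 rose and 6 fell. Of all 17606 genes tested in that fit, 2097 rose and 1515 fell. The 4 of the set that rose without normal 1 were Uqcr11, Ndufa2, Cox5b and Ndufv3, with log2 changes of 0.62, 0.57, 0.37 and 0.26 (edgeR adjusted p of 0.00482, 0.00851, 0.0163 and 0.0390). With all 6 libraries none of these 4, which were named after their values were seen, passed. By complex, the medians of the nuclear-encoded subunits without normal 1 were 0.06 for complex I (13 of 36 below 0), 0.03 for complex II, 0.03 for complex III, 0.01 for complex IV (7 of 15 below 0) and -0.03 for complex V (9 of 16 below 0), and that of the 9 assembly factors was -0.04. Uqcr11, for example, measured 29.7, 21.0 and 16.7 CPM in the normal libraries and 29.0, 28.6 and 29.3 CPM in the OIR libraries.

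The normal libraries kept nearly the same order across these subunits. Normal 1 was the highest of the 3 for 73 of the 80 and normal 3 the lowest for 58. The median deviation from the gene's mean over the 6 libraries was 0.18, -0.02 and -0.08 in the normal and -0.10, -0.06 and 0.04 in the OIR libraries on the log2 scale. Among the 20 subunits with a deposited length under 1000 bases it was 0.23, -0.02 and -0.20 in the normal libraries, and among the 18 of at least 3000 bases it was 0.17, 0.00 and 0.01. The 12 mitochondrial genes had another order, with medians of -0.18, 0.18 and 0.14 in the normal and 0.14, -0.18 and -0.02 in the OIR libraries.

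**Figure D3:**
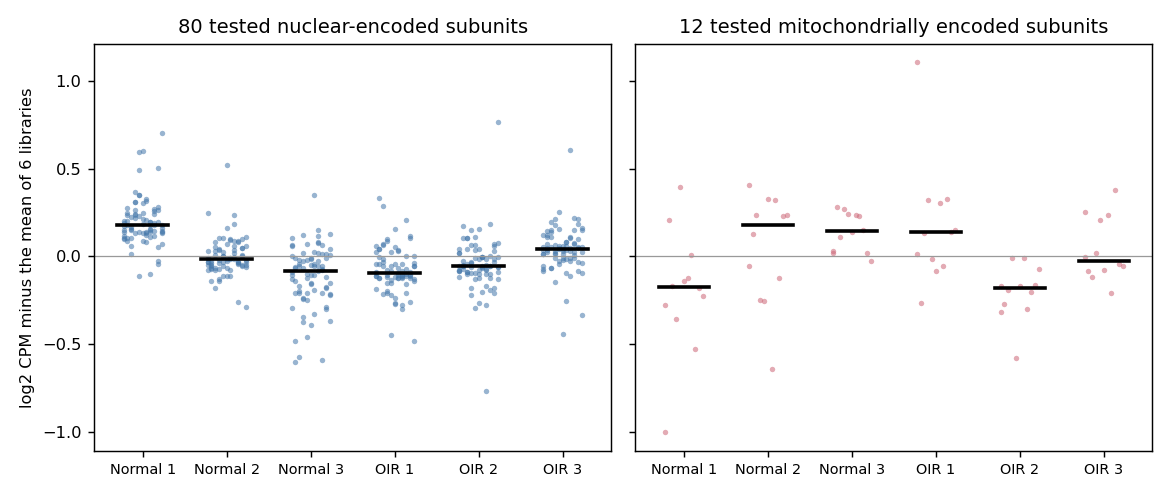
Each point is one tested subunit, placed at its log2 CPM in a library minus its mean over the 6 libraries, with the median of each library as a bar. Normal 1 is the highest library for the 80 nuclear-encoded subunits (0.18) and among the lowest for the 12 mitochondrially encoded ones (-0.18).

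Complex I has 36 nuclear-encoded subunits in the set, all tested, of which 2 fell. Their median log2 change with all 6 libraries was -0.04, with 22 of 36 below 0. Ndufb2, an accessory subunit of the membrane arm, lies on the plus strand of chromosome 6 (mm10, 39592574 to 39603382) and measured 34.1, 33.2 and 39.7 CPM in the normal and 28.5, 27.0 and 26.1 CPM in the OIR libraries. All OIR libraries lay below all normal libraries. The fall was 1.31-fold, a log2 change of -0.39 with a standard error of 0.096 (edgeR adjusted p of 0.0154), and it did not pass without OIR 3 (adjusted p of 0.0568) or without normal 3 (0.0663).

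Ndufs1 is the largest complex I subunit and holds iron-sulfur clusters on the path from NADH. It lies on the minus strand of chromosome 1 (mm10, 63143596 to 63176833) and measured 106, 109 and 110 CPM in the normal and 92.2, 94.6 and 94.3 CPM in the OIR libraries. The groups did not overlap and each was tight. The fall was 1.16-fold, a log2 change of -0.21 with a standard error of 0.065 and an edgeR adjusted p of 0.0440. It was called under 6 of the 17 alternatives, with adjusted p of 0.0346 to 0.156, and leaving out any library but normal 1 ended the call.

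Complex II, whose 4 subunits are all nuclear-encoded and which also works as succinate dehydrogenase in the Krebs cycle, had no gene past the threshold. Sdha, the flavoprotein that oxidises succinate, measured 308, 277 and 289 CPM in the normal and 271, 270 and 274 CPM in the OIR libraries. Its groups did not overlap, with a log2 change of -0.10 and an interval of -0.24 to 0.04 (edgeR adjusted p of 0.305). The changes of Sdha, Sdhb, Sdhc and Sdhd ran from -0.10 to 0.16, and all 4 intervals lay within 1.5-fold.

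Complex III had none of its 9 nuclear-encoded subunits past the threshold, with a median of -0.06. Uqcrc1, a core protein with the highest mean level among them, measured 246, 209 and 214 CPM in the normal and 198, 203 and 216 CPM in the OIR libraries, and the groups overlapped. Uqcrfs1, the Rieske iron-sulfur protein, came nearest to the threshold. It measured 109, 96.2 and 102 CPM in the normal and 81.7, 80.4 and 95.6 CPM in the OIR libraries, with a log2 change of -0.25 and an edgeR adjusted p of 0.0671, and is named after its values were seen.

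Complex IV had 15 of its 18 nuclear-encoded subunits tested and none past the threshold, with a median of -0.09 and 11 of 15 below 0 with all 6 libraries. Several of its small subunits come in tissue forms. Cox4i1, the broadly expressed form of subunit 4, measured 249, 203 and 189 CPM in the normal and 208, 199.8 and 234 CPM in the OIR libraries, with a log2 change of 0.00, or 0.12 without normal 1. Among the forms of subunit 6a, Cox6a1 measured 148, 120 and 109 CPM in the normal and 122, 121 and 139 CPM in the OIR libraries, and the muscle form Cox6a2 lay at or under 0.300 CPM. Among the forms of subunit 6b, Cox6b1 measured 79.8, 64.5 and 57.3 CPM in the normal and 66.1, 63.7 and 67.3 CPM in the OIR libraries. The groups of all these forms of subunits 4, 6a and 6b overlapped.

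The forms usual in most tissues were thus the abundant ones, and the others were low in both groups. Cox6b2, known from testis, measured 5.87, 3.83 and 3.47 CPM in the normal and 3.54, 4.25 and 4.29 CPM in the OIR libraries, at 1108 bases of length against 708 for Cox6b1. Cox7a2 measured 78.3, 64.4 and 64.8 CPM in the normal and 57.1, 64.7 and 69.2 CPM in the OIR libraries. Its heart and muscle form Cox7a1 measured 0.899, 1.16 and 1.09 CPM in the normal and 0.884, 0.531 and 1.53 CPM in the OIR libraries. Neither form of subunit 7a passed.

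Cox7a2l measured 125, 109 and 96.8 CPM in the normal and 113, 119 and 117 CPM in the OIR libraries. Cox7b measured 52.5, 53.3 and 46.2 CPM in the normal and 46.2, 47.8 and 52.6 CPM in the OIR libraries. Neither passed. Cox8a, the general form of subunit 8, measured 178, 151 and 129 CPM in the normal and 136, 145 and 143 CPM in the OIR libraries. Its heart and muscle form Cox8b measured 1.8, 1.7 and 1.03 CPM in the normal and 0.943, 0.943 and 0.823 CPM in the OIR libraries, which did not overlap. With at most 30 counts in any library, its log2 change of -0.74 had an interval of -1.49 to 0.01 and did not pass (edgeR adjusted p of 0.160). Without normal 1, the log2 changes of Cox6a1, Cox6b1, Cox8a and Ndufa4 were 0.15, 0.11, 0.01 and 0.01, and none of them passed.

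Beside the complex IV genes stand the 2 paralogues that were left out, both known to respond to low oxygen. Ndufa4l2, the paralogue of the complex IV subunit Ndufa4, measured 5.45, 5.96 and 4.89 CPM in the normal and 119, 119.6 and 115 CPM in the OIR libraries. Its rise was 21.7-fold, a log2 change of 4.44 with a standard error of 0.095 (edgeR adjusted p of 2.08e-09). Ndufa4 itself measured 176, 143 and 142 CPM in the normal and 136, 143 and 152 CPM in the OIR libraries, which overlapped, with a log2 change of -0.10 and an interval of -0.30 to 0.10. Per kilobase, the mean of Ndufa4l2 was 4.96 CPM in normal and 108 CPM in OIR, and that of Ndufa4 was 111 and 104 CPM.

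Cox4i2, the other form of subunit 4, rose by much less. It measured 30.4, 30.4 and 27.1 CPM in the normal and 40.7, 43.2 and 44.9 CPM in the OIR libraries, which did not overlap. The rise was 1.46-fold, a log2 change of 0.55 with a standard error of 0.084 (edgeR adjusted p of 0.00118). The interval of Cox4i1 was -0.22 to 0.22, and its mean per kilobase was 138 CPM in both groups, against 37.2 and 54.5 CPM for Cox4i2. Both paralogues passed under all 17 alternatives. Cox4i2 is known from vessel-associated cells. The 8 mural markers (among them Pdgfrb, Rgs5 and Acta2) all rose, against 11.1% higher over all genes tested. Their sum went from 257 to 295 CPM in normal to 668 to 759 CPM in OIR libraries. The part of mural cells in the rise of Cox4i2 was not tested.

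**Figure D4:**
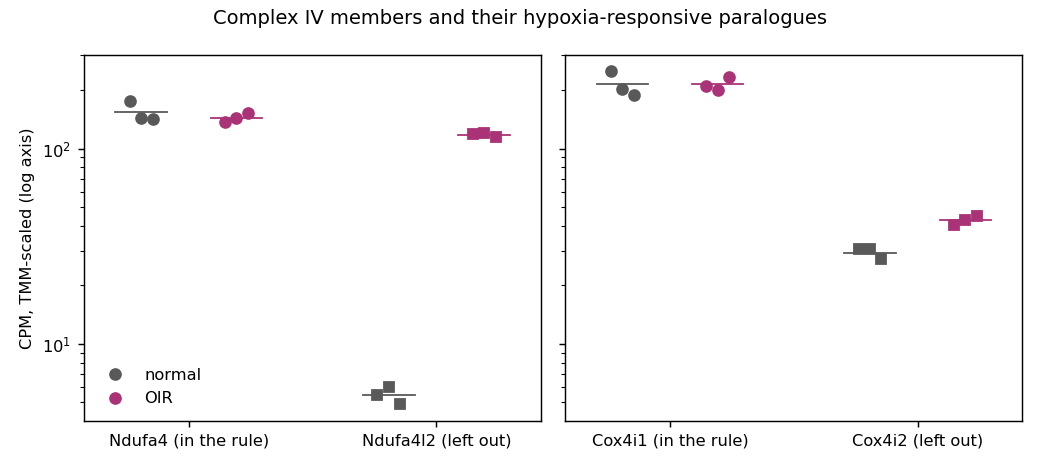
CPM on a log axis in each library (normal grey, OIR coloured) for Ndufa4 with Ndufa4l2 and for Cox4i1 with Cox4i2, with bars at the group means. The normal and OIR points overlap for Ndufa4 and Cox4i1 and lie apart for Ndufa4l2 and Cox4i2.

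Complex V had 16 of its 17 nuclear-encoded subunits tested, with none past the threshold. Their median over all 6 libraries was -0.12, with 13 of 16 below 0 and a range of -0.23 to 0.03. Atp5b, the catalytic beta subunit, had the highest mean level of the nuclear-encoded subunits by counts and measured 1152, 1000.1 and 1029 CPM in the normal and 885, 897 and 951 CPM in the OIR libraries. All OIR libraries lay below all normal ones, with a log2 change of -0.22, an interval of -0.39 to -0.05 and an edgeR adjusted p of 0.0697. Summed, the complex V nuclear genes measured 3290.5, 2875 and 2847 CPM in the normal and 2599, 2679.7 and 2862 CPM in the OIR libraries, and the groups overlapped.

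The membrane ring of the ATP synthase is built from subunit c, which 3 genes encode with the same mature protein. Atp5g1 measured 81.2, 69.5 and 71.6 CPM in the normal and 64.6, 70.1 and 65.8 CPM in the OIR libraries. Atp5g2 measured 87.7, 84.5 and 70.4 CPM in the normal and 78.4, 79.1 and 90.6 CPM in the OIR libraries. Atp5g3 measured 194, 156 and 149 CPM in the normal and 149.9, 158 and 168 CPM in the OIR libraries. All 3 overlapped between the groups, and none passed. Of the windows of Atp5g2, 38.3% occurred in another gene's transcript, so its counts are uncertain.

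The 9 assembly and coupling factors with matching names had none past the threshold and a median of -0.08. Ndufaf4, an assembly factor of complex I with the highest mean level of the 9, measured 27.1, 32.2 and 34.5 CPM in the normal and 26.2, 25.7 and 25.4 CPM in the OIR libraries. The groups did not overlap, and its log2 change was -0.28 (edgeR adjusted p of 0.0881). A further list of 38 tested assembly factors with other names, such as Coa5, had 0 past the threshold in edgeR, with 2 at an unadjusted p under 0.05 and a median of -0.01.

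Of 13 enzymes of the Krebs cycle, which feeds electrons to the chain, 3 fell and none rose, with a median of -0.14 and 12 of 13 below 0. These 3 are 23.1% of the list, against 8.73% lower and 19.8% changed in either direction over all genes tested. Without normal 1, 3 fell and 1 rose. In that fit, used for the lists below too, 1515 of all 17606 genes tested fell and 2097 rose. Idh3a, a subunit of the NAD-dependent isocitrate dehydrogenase, measured 161, 147 and 156 CPM in the normal and 115, 114 and 123 CPM in the OIR libraries, a 1.32-fold fall (edgeR adjusted p of 0.00234). Ogdh, of the 2-oxoglutarate dehydrogenase complex, fell 1.34-fold and Suclg1, of succinyl-CoA ligase, fell 1.2-fold, with groups that did not overlap.

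Of 11 tested genes of the pyruvate dehydrogenase complex, its kinases, phosphatases and the pyruvate carrier, 2 fell and 1 rose, or 27.3% against 19.8% of all genes tested. Dlat, the E2 subunit, fell 1.25-fold and Pdhb, of E1, fell 1.2-fold (edgeR adjusted p of 0.0194 and 0.0217). Pdk1, a kinase that switches the complex off, measured 83.2, 79.1 and 88.1 CPM in the normal and 124, 127 and 126 CPM in the OIR libraries, a 1.5-fold rise (edgeR adjusted p of 0.00022). Among 8 genes of mitochondria known to respond to low oxygen, which include Ndufa4l2, Cox4i2 and Pdk1, 7 rose and none fell, with a median of 0.57, against 11.1% higher over all genes tested. Bnip3, a mitophagy receptor, rose 2.04-fold and Higd1a, a small protein bound to complexes III and IV, rose 1.74-fold. That list was chosen with the rise of some of its genes known, so its direction is no independent evidence.

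Among 22 tested genes for the upkeep and transcription of mitochondrial DNA, 1 fell and 1 rose, 9.09% against 19.8% of all genes tested, with a median of -0.01. Lrpprc, which stabilises mitochondrially encoded messenger RNAs, measured 108, 109 and 116 CPM in the normal and 81.3, 81.0 and 88.6 CPM in the OIR libraries, a 1.33-fold fall (edgeR adjusted p of 0.00267) with groups that did not overlap. Polg, the mitochondrial DNA polymerase, rose 1.21-fold (adjusted p of 0.0338). The mitochondrial transcription factor Tfam and the polymerase Polrmt each had a log2 change of -0.10 and did not pass. The part of Lrpprc in the levels of mt-Co1 was not tested.

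Of 13 regulators of mitochondrial biogenesis, 2 fell and 1 rose, or 23.1%, which is near the 19.8% of all genes tested. Without normal 1, 3 fell and 1 rose. Esrrg, an oestrogen-related nuclear receptor, measured 158, 179 and 179 CPM in the normal and 117, 118 and 126 CPM in the OIR libraries, a 1.43-fold fall (edgeR adjusted p of 0.000668). The coactivator Ppargc1b fell 1.27-fold and the nuclear receptor Ppard rose 1.29-fold, while Ppargc1a had a log2 change of -0.17 and did not pass (adjusted p of 0.185). Of 20 carriers, porins and cristae genes, 2 fell and 1 rose, or 15% against 19.8% of all genes tested, with a median of -0.13. Without normal 1, 3 of the 20 fell and 3 rose, beside 1515 lower and 2097 higher of all 17606 genes tested. The mitochondrial creatine kinase Ckmt1 fell 1.36-fold, the fusion protein Opa1 fell 1.22-fold, and the outer membrane protein Tspo rose 1.84-fold.

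The other lists had fewer genes past the threshold than the 19.8% of all genes. Of 22 tested genes of mitochondrial import, 1 rose, Tomm7 of the outer membrane translocase, by 1.36-fold, and 2 rose without normal 1. Of 77 tested mitochondrial ribosomal proteins, 2 fell, Mrpl48 by 1.25-fold and Mrps35 by 1.27-fold, and the median was -0.02. Without normal 1, none of the 77 fell and 5 rose, with a median of 0.03, beside 1515 lower and 2097 higher of all 17606 genes tested. Of the 24 mitochondrial rRNA and tRNA genes, 10 were tested and 0 passed in edgeR, with 2 at an unadjusted p under 0.05. mt-Rnr2, the large rRNA and the most abundant of them, measured 519, 674 and 539 CPM in the normal and 640.2, 541 and 693 CPM in the OIR libraries.

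**Figure D5:**
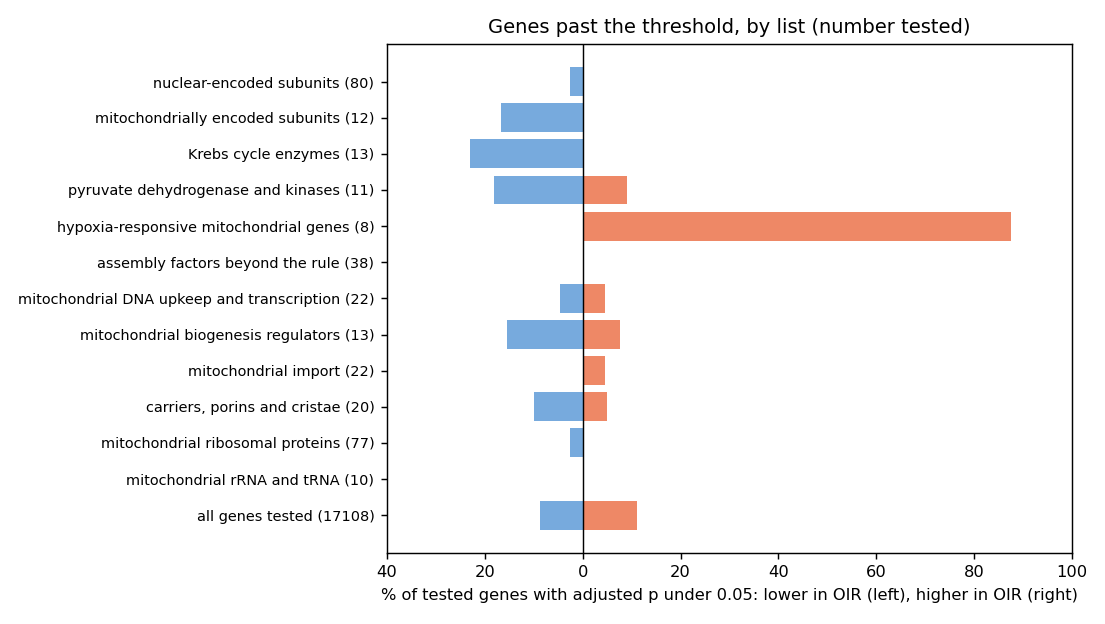
Bars give the percent of tested genes past the edgeR threshold that were lower (left of 0) or higher (right of 0) in OIR, for the oxidative phosphorylation groups, the other mitochondrial lists and all genes tested, with the number tested beside each name. The 80 nuclear-encoded subunits have 2 genes to the left and none to the right, while 7 of the 8 low-oxygen genes lie to the right.

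Markers of the retina's neurons and glia were lower in part. Over all genes tested, 8.73% were lower and 11.1% higher. Of 16 rod markers 5 fell and none rose, with a median of -0.20. Of 11 bipolar markers 7 fell, from a summed 2193 to 2284 CPM in normal to 1603 to 1707 CPM in OIR libraries, and of 11 amacrine markers 8 fell, from 1378 to 1463 to 1054 to 1120 CPM. Of 5 horizontal cell markers 3 fell (413 to 458 against 272 to 311 CPM). Of 11 cone markers 3 fell and 1 rose (1474 to 1606 against 1459 to 1643 CPM), and of 10 ganglion cell markers 1 fell (1199 to 1893 against 1193 to 1327 CPM). Of 11 Müller glia markers 5 fell and 2 rose (5041 to 5848 against 4299 to 5045 CPM).

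Markers of vessels, blood and immune cells rose in part, against 11.1% higher and 8.73% lower over all genes tested. Of 10 endothelial markers 8 rose (417 to 479 against 654 to 726 CPM), of 10 microglia markers 6 rose (71.6 to 88.0 against 129.7 to 173 CPM), of 5 astrocyte markers 3 rose (67.8 to 80.6 against 305 to 387 CPM) and of 5 erythroid markers 4 rose (60.3 to 90.3 against 175 to 209.9 CPM). Of 9 pigment epithelium markers 6 fell (222 to 381 against 121 to 145 CPM). None of the 9 lens markers passed, with 6.59 to 369 CPM in normal and 75.5 to 5816 CPM in OIR libraries. Of 9 muscle markers 4 were tested and none passed (7.25 to 8.10 against 7.54 to 10.3 CPM), and Myh4 was at 0. The part of these cell types in the levels of the oxidative phosphorylation genes was not tested.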

How the data were processed

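RNA sequencing had been run on whole mouse retina at postnatal day 17, 3 normal and 3 OIR samples, with TRIzol RNA and the NEBNext Ultra RNA kit per the labels' protocols. That kit in its standard form does not mark strand. The authors deposited a table of raw counts, 1 row per gene and 1 column per library, with each gene's length and position as other columns. The submitters' processing notes name HISAT2 2.0.5 as a tool, together with featureCounts 1.5.0-p3, DESeq2 1.20.0, fastp and CASAVA 1.8, and the build mm10. The sources used here do not give the annotation, the strand setting or the handling of reads with several alignments.

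Columns were matched to samples by group, day and number in the titles. No pair of libraries within a group agreed within sampling noise (chi-square of 7.2 to 23.1 per degree of freedom), and all 6 entered separately. The genes not tested held 0.164% of the counts. EdgeR 4.0.16 (R 4.3.3) was fitted as a quasi-likelihood test over all 17108 genes kept by filterByExpr (minimum count 10), with TMM scaling, no covariate, Benjamini-Hochberg adjustment and a threshold of 0.05. Its common biological coefficient of variation came to 0.131. CPM values were computed here from the deposited counts with the TMM factors; SDs are over 3 libraries, and standard errors and 95% intervals come from the F statistic. Lengths used for CPM per kilobase are those in the table, which equal the union of exons in GENCODE vM21 for 100 of the 106 genes.

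The genes of the set, the lists and the markers were chosen with earlier results of these data known. Named genes were, per complex and genome of origin, up to 3 past the threshold and the one with the highest mean level, the Cox4, Cox6a, Cox6b, Cox7a, Cox7b, Cox8 and Atp5g families, the genes left out by the filter, and up to 3 per list, with Ndufa4, Tfam, Polrmt, Ppargc1a, the remaining mitochondrial genes and those said to be so named after their values were seen. The values of 1 gene that this rule takes are not reported here. Sequence copies were found as exact 50-base windows in other genes' transcripts (GENCODE vM21). The fit was tested on simulated data. Alternatives were DESeq2 1.42.0, limma-voom (limma 3.58.1), scaling by median-of-ratios size factors, by library totals alone or without the mitochondrial chromosome, no filter or one of 1 CPM in 3 libraries, a block for the replicate number, sex as a covariate, each library left out in turn, and 0.01 as the threshold; removal of a trend on gene length was added after seeing the data.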

Additional observations from a re-analysis of the deposited data

How the results depend on the processing

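All alternatives gave 0 calls in complex II, and in none of the 17 did a called gene of the set change sign. Over the 101 genes and 17 alternatives, 1671 of 1717 values kept their side of the threshold, 27 newly passed and 19 no longer did. Genes that were not called did change direction. Of the 80 nuclear-encoded subunits, 54 lay below 0 in the main fit, 35 without normal 1 and 69 without normal 3. The count of lower genes, 4 in the main fit, was 7 with DESeq2, 7 with the gene-length trend removed (an alternative chosen after seeing the data) and 7 with no filter, where 4 were higher; it was 2 with the replicate block and 1 at a threshold of 0.01. The nuclear-encoded subunits called, 2 in the main fit, were 5, 4 and 6 with DESeq2, the trend removed and no filter, 1 with library totals alone, 1 with the sex covariate, 1 with the replicate block and 0 at 0.01. The mitochondrially encoded subunits called, 2 in the main fit, were 5 with no filter, 1 with the replicate block and 1 at 0.01. Complex I had 3 in the main fit, 1 with the replicate block and 0 at 0.01. Complexes III, IV and V, with 0, 1 and 0 in the main fit, had 1, 2 and 1 with DESeq2, 1, 2 and 1 with the trend removed and 3, 3 and 2 with no filter, and complex V had 1 with limma-voom. The assembly factors had 1 with the trend removed. All genes called, 3394 in the main fit, were 1763 at 0.01. The nuclear median, -0.07 in the main fit, was -0.03 with library totals alone, and the mitochondrial median, -0.08, was -0.16 with the sex covariate, -0.15 with the trend removed, -0.04 with library totals alone and -0.05 with no filter. The fit with no filter also estimated the spread with 30543 genes; the cause of the other shifts was not tested.

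Leaving out each library in turn gave 2006 to 3717 calls over all genes, 1 to 6 lower and 0 to 4 higher genes of the set, 0 to 6 nuclear-encoded and 1 to 3 mitochondrially encoded subunits, 0 to 5 in complex I, 0 to 2 in complex III, 1 to 2 in complex IV, 0 to 1 in complex V and 0 to 1 assembly factors. The 6 lower genes came without normal 1 or without normal 2, the 4 higher ones without normal 1, and 1 lower gene was left without normal 3. The median log2 change ran from -0.135 to 0.033 for nuclear-encoded and from -0.153 to 0.061 for mitochondrially encoded subunits, and the difference in the share of counts from -0.427 to -0.253 percentage points. Samples with the same replicate number did not deviate together (correlations 0.061, -0.16 and 0.074), so the numbers were not taken as pairs; with the block, calls over all genes went from 3394 to 2846. With 3 libraries a group and a median standard error of 0.101, small changes of single subunits are at the limit of what could be called.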

Other observations

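Ndufa12, an accessory subunit of complex I, had 2 libraries apart from the other 4. It measured 31.2, 15.7 and 14.8 CPM in the normal and 13.7, 32.7 and 15.2 CPM in the OIR libraries, so normal 1 and OIR 2 were high in different groups. Its log2 change of 0.00 had an interval of -0.77 to 0.76, among the widest of complex I. It was chosen after its values were seen. Of its 50-base windows, 17.7% occurred in the transcript of another gene.

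The mitochondrial rRNA genes overlapped between the groups. Their share of all counts was 0.0838%, 0.0993% and 0.0850% in the normal and 0.0952%, 0.0833% and 0.105% in the OIR libraries. The nuclear-encoded subunits held 0.809%, 0.721% and 0.693% of all counts in the normal and 0.701%, 0.709% and 0.739% in the OIR libraries, and these groups overlapped too.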
